A study of Mus musculus with 12 samples.

Results

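Matrix metalloproteinases (MMPs) and tissue inhibitors of metalloproteinases (TIMPs) were followed through normal mammary tissue and mammary tumors by RNA-seq. The 10 genes were taken by name: Mmp2, Mmp3, Mmp9, Mmp11, Mmp12, Mmp13, Mmp14, Timp1, Timp2 and Timp3. All 10 were found, among 23704 gene names in the Normal and Tumor samples and 23691 in the DMSO and C646 samples. Values are FPKM, the fragments of a gene scaled to its length and to the mapped fragments of the library. Levels of different genes are thus on a scale per length, but the estimate of a single gene could fail (see Gapdh below).

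The study had 4 groups of 3 samples, all from female mice 12 weeks of age. Normal was mammary gland of wild type FVB mice without treatment, with abdominal and inguinal glands of 3 mice mixed for each replicate. Tumor was the thoracic mammary tumor of untreated MMTV-PyVT mice on the FVB background, 1 mouse per replicate. These mice are heterozygous for a transgene in which the mouse mammary tumor virus promoter drives the polyoma virus middle T antigen in the mammary epithelium. DMSO and C646 were tumors of MMTV-PyVT mice injected with the solvent DMSO or with C646, an inhibitor of the histone acetyltransferase p300. The labels gave 1 mg/kg for both injections. The 4 groups were compared in pairs, Tumor with Normal and C646 with DMSO. Normal and Tumor thus differed in tissue, in the position of the gland and in pooling of mice, which cannot be told apart.

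MMPs are zinc-dependent enzymes that are made as inactive proenzymes and cut collagens, laminins, proteoglycans and other proteins of the extracellular matrix after activation. TIMPs bind the active site of MMPs and block it, so the balance of enzymes and inhibitors sets how fast matrix is turned over. In the mammary gland both families take part in branching and involution, and in tumors much of their expression is known from stromal cells.

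The labelled tissues were checked against marker genes. The summed FPKM of 5 luminal epithelial markers was 414 to 891 in Normal and 2610 to 3758 in Tumor, and 2556 to 3313 in the injected tumors. Normal also held adipocyte markers (6 genes, 17460 to 22270 FPKM), B cell markers (5 genes, 233 to 294 FPKM) and T cell markers (5 genes, 215 to 291 FPKM), while in Tumor these sums were 84.7 to 1312, 0.445 to 0.816 and 0.721 to 2.105 FPKM. Skeletal muscle markers (5 genes) summed to 1539 to 4364 FPKM in Tumor and to 10.6 to 81.6 FPKM in Normal. Among the injected tumors, DMSO replicate 3 and C646 replicates 1 and 3 held 309 to 338 FPKM of the muscle markers and the others under 3 FPKM. Gapdh, which every cell uses, was at 0 to 0.194 FPKM in the Normal and Tumor samples and at 2.11 to 19.9 FPKM in the injected tumors. A value of 0, or a low value above 0, could thus be a failed estimate. A gene at 0 is only said to be listed at 0.

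Of the members, 5 of the 7 MMPs and 2 of the 3 TIMPs were lower in Tumor than in Normal. The gelatinases Mmp2 and Mmp9, the stromelysins Mmp3 and Mmp11, the membrane-bound Mmp14 and the inhibitors Timp2 and Timp3 fell, and Mmp12 and Timp1 rose. Of 9 members tested with limma, 2 rose and 7 fell (adjusted p under 0.05). Of all 13031 genes tested, 60.5% were called, 28.8% higher and 31.7% lower. The median log2 fold change was -1.80 over the 9 members and -0.02 over all genes tested. Mmp13 was under the filter of 1 FPKM in at least 3 of the 6 samples and was not tested. Mmp12 passed this filter only through Tumor and Mmp9 only through Normal, so both had to differ to be tested, and the counts are no support for a shared direction. The ranges of Normal and Tumor did not overlap for any of the 10 members, as for 68.9% of all genes tested. The exact permutation test gave p = 0.1 for each member, the smallest that 3 samples against 3 allow.

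**Figure D1:**
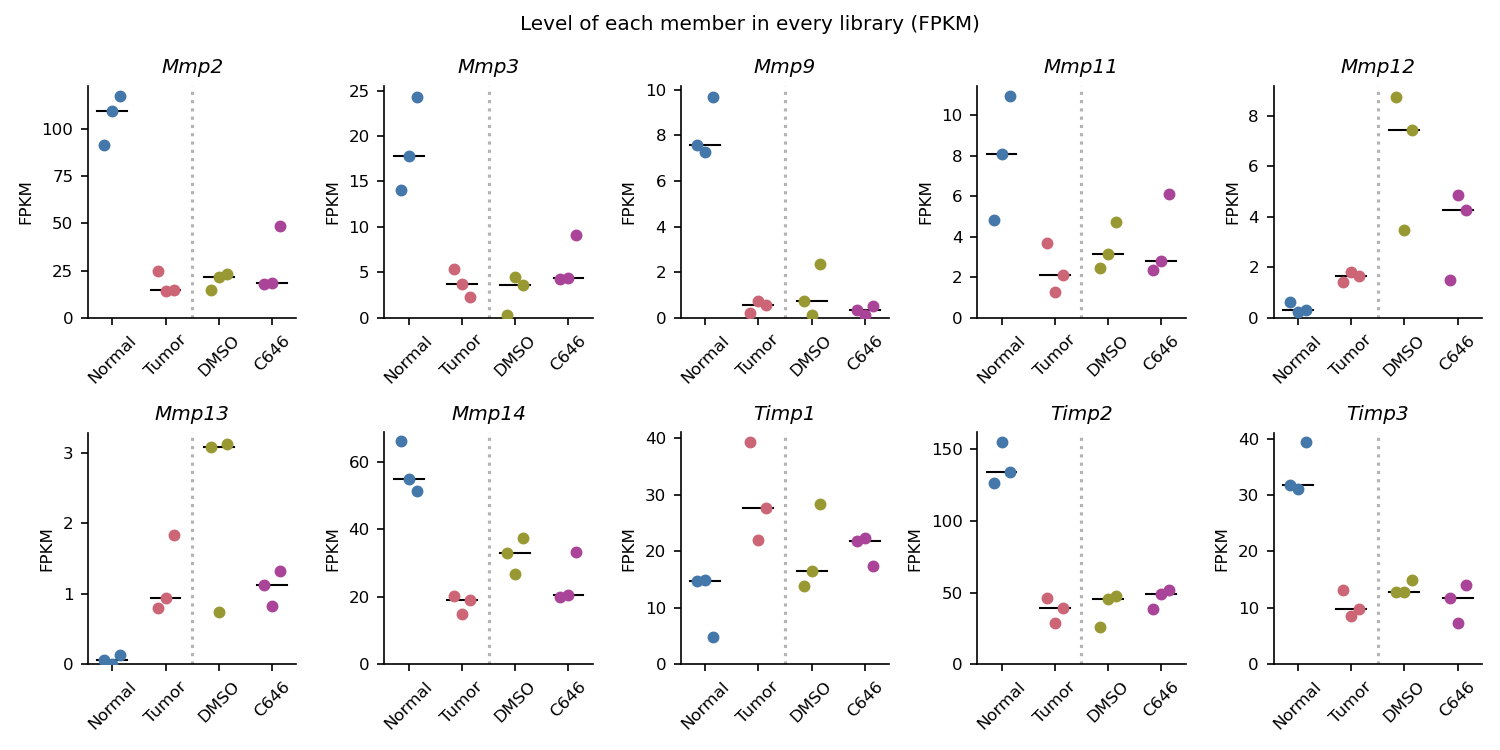
Level of each member in FPKM (linear axis from 0, scaled for each gene) in the 3 samples of Normal, Tumor, DMSO and C646, with points in replicate order and a line at the median. Mmp2 lies between 91.4 and 118 FPKM in Normal and between 14.3 and 24.8 FPKM in Tumor, while DMSO and C646 points overlap for every gene.

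Among the gelatinases, which digest denatured collagen and type IV collagen, Mmp2 had 91.4, 109 and 118 FPKM in Normal replicates 1, 2 and 3 and 24.8, 14.3 and 14.6 FPKM in Tumor replicates 1, 2 and 3. Its mean was 5.93 times higher in Normal, and each Normal sample lay far above each tumor. On the log2(FPKM + 0.03125) scale, which is used for all differences, Mmp2 fell by 2.61 ± 0.24 (SE, limma adjusted p = 0.000113). Mmp9 had 7.57, 7.29 and 9.68 FPKM in Normal and 0.197, 0.738 and 0.576 FPKM in Tumor. It was under 1 FPKM in every tumor, and fell by 4.10 ± 0.46 (SE, limma adjusted p = 0.000278). With a pseudocount of 1 the difference of Mmp9 was -2.62, since its size depends on the pseudocount at such low levels. Mmp2 lies on chr8:92827291-92853420 and Mmp9 on chr2:164940780-164955850, both on the forward strand of GRCm38, the build that is also called mm10.

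The stromelysins fell as well. Mmp3, or stromelysin-1, which cuts many matrix proteins and activates other proMMPs, had 14.0, 17.8 and 24.3 FPKM in Normal and 5.42, 3.71 and 2.27 FPKM in Tumor. The lowest Normal sample was above the highest tumor, and the difference was -2.34 ± 0.34 (SE, limma adjusted p = 0.000952). Mmp11, or stromelysin-3, which is known from fibroblasts around carcinomas and is activated inside the cell by furin, had 4.83, 8.10 and 10.95 FPKM in Normal and 3.71, 1.27 and 2.099 FPKM in Tumor. Tumor replicate 1 came close to Normal replicate 1, and the fall was the weakest called among the 7 lower members by adjusted p, with -1.80 ± 0.44 (SE, limma adjusted p = 0.0101). Mmp11 (chr10:75923222-75936496, reverse strand) overlaps Chchd10, a mitochondrial protein gene on the other strand, over 155 exonic bases, 5.58% of its exonic length. The libraries did not keep the strand, so fragments there could not be assigned by strand. Chchd10 had 306 to 443 FPKM in Normal and 129 to 205 FPKM in Tumor, and its part in the result was not tested.

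Mmp14, the membrane-type enzyme that activates proMMP2 at the cell surface, was the third most abundant member in Normal. It had 66.2, 55.1 and 51.4 FPKM in Normal and 20.3, 15.04 and 19.0 FPKM in Tumor, and the samples of each group stood close together. Its difference was -1.67 ± 0.17 (SE, limma adjusted p = 0.000176), a 3.18-fold lower mean. Mmp14 lies on chr14:54431612-54445364 on the forward strand.

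Mmp12 and Mmp13 differed in the other direction. Mmp12, the macrophage metalloelastase, had 0.629, 0.230 and 0.319 FPKM in Normal and 1.40, 1.81 and 1.63 FPKM in Tumor. All Normal samples were under 1 FPKM and all tumors above it, with a difference of 2.06 ± 0.42 (SE, limma adjusted p = 0.00448). A pseudocount of 1 lowered the difference to 0.92. Mmp13, or collagenase-3, the main collagenase of fibrillar collagen in the mouse, had 0.0542 and 0.137 FPKM in Normal replicates 1 and 3, was listed at 0 in replicate 2, and had 0.791, 0.941 and 1.83 FPKM in Tumor. Each tumor was above each Normal sample, but only 1 tumor reached 1 FPKM. The untested difference of Mmp13 was 3.90, against 2.15 with a pseudocount of 0.25 and 1.01 with a pseudocount of 1. Without the filter on low values Mmp13 was called higher (limma adjusted p = 0.00294).

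Mmp13, Mmp12 and Mmp3 lie in this order on chromosome 9, within a cluster of 10 MMP genes that spans 427072 bp, and the starts of Mmp13 and Mmp3 are 173308 bp apart. Mmp13 (chr9:7272514-7283331) and Mmp12 (chr9:7344381-7369499) had higher values in Tumor, while Mmp3 (chr9:7445822-7455975) and Mmp27 had lower ones. Mmp27, an enzyme of little known function, had 1.28 to 2.02 FPKM in Normal, was listed at 0 in Tumor replicates 1 and 3 and had 0.0565 FPKM in replicate 2. Mmp10, or stromelysin-2, and the neutrophil collagenase Mmp8 stayed under 1 FPKM in all 12 samples, and Mmp1b, Mmp1a and Mmp20 were listed at 0 in all Normal and Tumor samples. Mmp1a, which the annotation calls a polymorphic pseudogene, follows Mmp3. Mmp7, or matrilysin, an enzyme of epithelial cells, reached 1 FPKM in Tumor replicate 2 (1.36 FPKM) and DMSO replicate 3 (3.13 FPKM) and in no other sample.

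**Figure D2:**
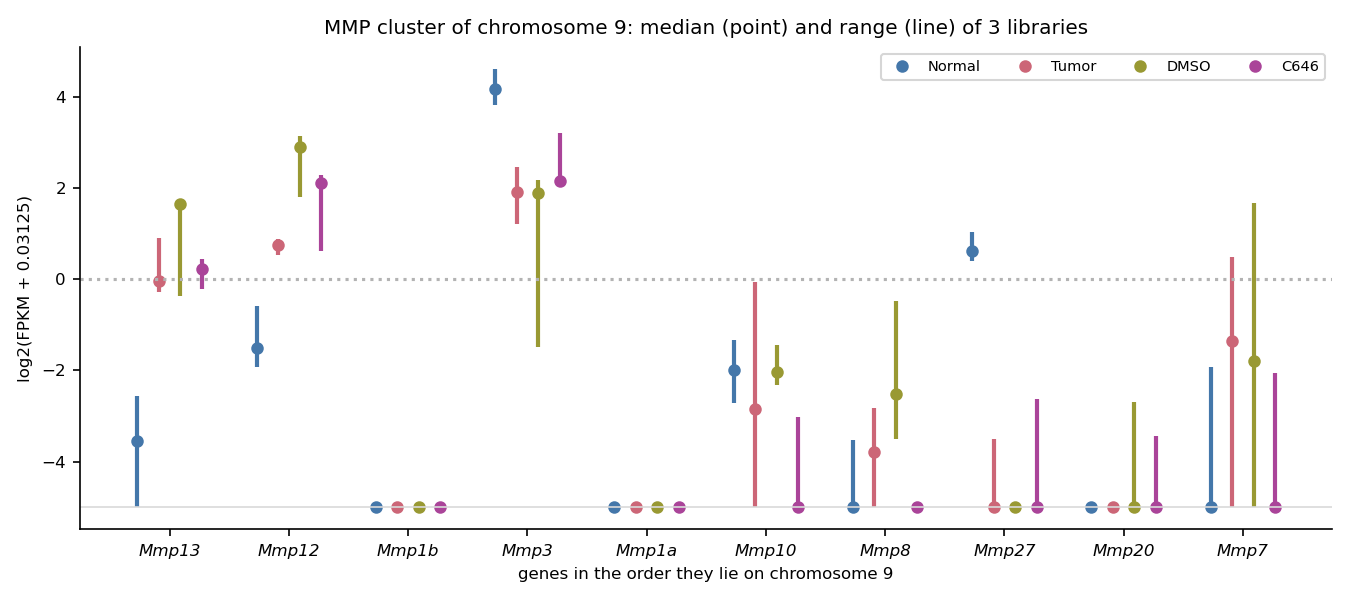
Levels of the 10 MMP genes of the chromosome 9 cluster, in the order in which they lie there, on a log2(FPKM + 0.03125) axis, where a gene listed at 0 lies on the lower grey line and 1 FPKM close to the dotted line. Points are the medians and bars the ranges of 3 samples of each group. Mmp13 and Mmp12 are lowest in Normal, and Mmp3 and Mmp27 are highest there.

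AP-1, the dimer of Fos and Jun proteins, is a known activator of several MMP genes, and the promoters of the 3 cluster members are shown for its motif. The motif TGAGTCA on either strand (TGACTCA on the other) was found by search in the 250 bases before the start of Mmp13, of the second Mmp12 start and of Mmp3. It occurred in 4.46% of the 32851 mouse promoter windows of the same length. The sequences are the 100 bases before each start from RefSeq (GRCm38.p6, forward strand, 5′ to 3′), with the AP-1 motif in capitals. They are chr9:7272414-7272513 for Mmp13, chr9:7347274-7347373 for Mmp12 and chr9:7445722-7445821 for Mmp3.

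Mmp13: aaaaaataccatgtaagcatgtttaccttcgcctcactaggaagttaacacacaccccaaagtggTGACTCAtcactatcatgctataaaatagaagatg
Mmp12: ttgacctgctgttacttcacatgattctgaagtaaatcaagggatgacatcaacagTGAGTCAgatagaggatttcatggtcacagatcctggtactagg
Mmp3: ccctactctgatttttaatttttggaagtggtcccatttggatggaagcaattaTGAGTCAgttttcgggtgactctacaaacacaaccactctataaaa

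The motif lay 35 bases before the start in Mmp13, on the reverse strand, 44 bases before it in Mmp12 and 46 bases before it in Mmp3. The distances were thus alike, and the part of the motif in the levels of these genes was not tested. The Mmp12 window stands before the second of its RefSeq starts and lies inside the annotated span of the gene. The window of the first start held no such motif, and FPKM per gene does not show which start was used. Of the other members in the RefSeq promoter table, Mmp11, Mmp14, Timp1, Timp2 and Timp3 held no TGAGTCA in these windows. Each of these 5 held the GC box GGGCGG on either strand, which occurred in 32.7% of all windows and was found in none of the 3 cluster members. The sequence TATAAA was found in Mmp13 and Mmp3 and in 12.4% of all windows. Mmp2 and Mmp9 were not searched. A match is a stretch of letters and was not tested as a binding site.

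The TIMPs differed in direction. Timp1, an inducible inhibitor that blocks most soluble MMPs and is weak against Mmp14, had 14.7, 14.9 and 4.90 FPKM in Normal and 39.3, 22.1 and 27.6 FPKM in Tumor. All tumors were above all Normal samples, and Normal replicate 3 stood low in its group. The difference was 1.49 ± 0.45 (SE, limma adjusted p = 0.0227), a 2.58-fold higher mean. Without Tumor replicate 1 the difference was 1.27 and no longer called (limma adjusted p = 0.0598), and without Normal replicate 3 it was 0.96 and still called. Timp1 lies on chrX:20870166-20874735, inside Syn1, a synapsin gene of the other strand that had at most 0.354 FPKM in any sample and shares no exonic base with it.

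Timp2 was the most abundant member in every group. This inhibitor also links Mmp14 to proMMP2 in the complex that activates Mmp2. It had 126, 155 and 134 FPKM in Normal and 45.9, 28.7 and 39.1 FPKM in Tumor. The groups were far apart, and Timp2 fell by 1.89 ± 0.20 (SE, limma adjusted p = 0.000202). Timp3, which is held in the matrix and also inhibits ADAM proteases such as Adam17, had 31.7, 31.0 and 39.5 FPKM in Normal and 13.2, 8.50 and 9.84 FPKM in Tumor. Its difference of -1.71 ± 0.20 (SE, limma adjusted p = 0.000317) was close to that of Timp2 and Mmp14. Timp2 lies on chr11:118301069-118355740 (reverse strand) and Timp3 on chr10:86300372-86349506 (forward strand). Timp3 lies inside Syn3, a synapsin gene of the other strand, which had at most 1.01 FPKM and shares 1733 exonic bases with it, 21.3% of the exonic length of Timp3.

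**Figure D3:**
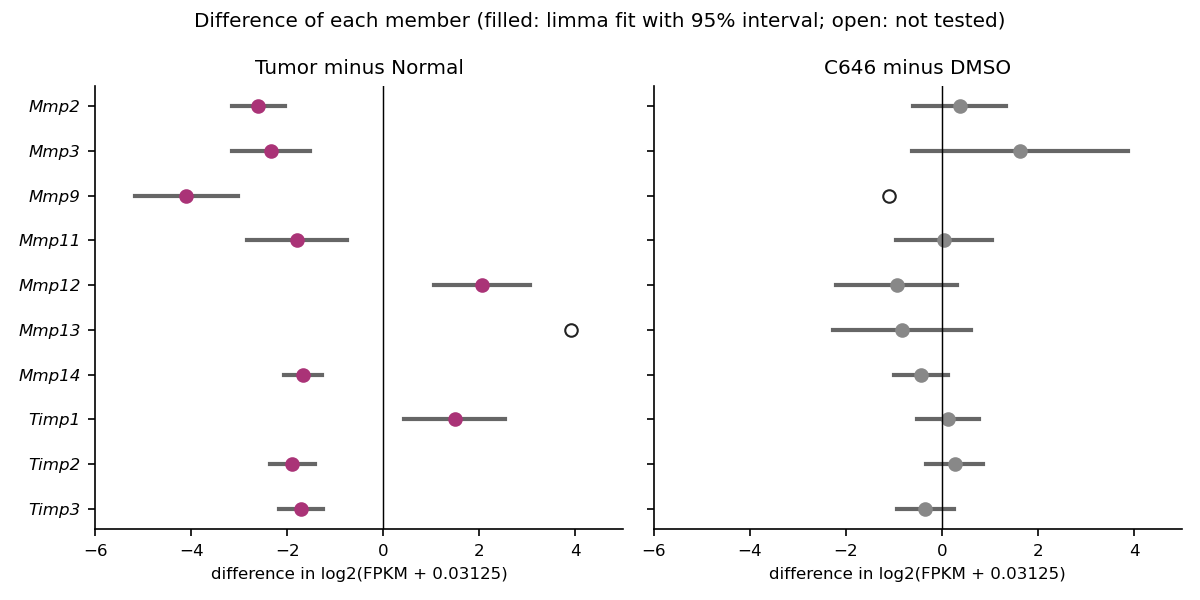
Difference of each member in log2(FPKM + 0.03125), Tumor minus Normal on the left and C646 minus DMSO on the right. Filled points are limma estimates with 95% intervals, purple where called and grey where not, and open points were under the filter and not tested (Mmp13 and Mmp9). Tumor minus Normal runs from -4.10 for Mmp9 to 3.90 for Mmp13, and each interval of C646 minus DMSO includes 0.

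Because Timp1 rose while Timp2 and Timp3 fell, the make-up of the TIMP total differed between the groups. The share of Timp1 in the summed FPKM of the 3 TIMPs was 8.49%, 7.42% and 2.74% in Normal and 39.9%, 37.3% and 36.0% in Tumor. Timp2 held 73.2% to 77.1% in Normal and 46.7% to 51.1% in Tumor. The injected tumors lay between, with a Timp1 share of 22.2% to 31.3% in DMSO and 21.0% to 30.3% in C646. The MMP total, the sum of the 7 MMPs, was 185 to 214 FPKM in Normal and 37.8 to 56.6 FPKM in Tumor. Mmp2 and Mmp14 together held 74.0% to 85.3% of it in the 12 samples. The TIMP total per MMP total was 0.935, 1.02 and 0.834 in Normal and 1.74, 1.56 and 1.82 in Tumor. These separate ratios hold for the 10 members only. Over all 23 MMPs and 4 TIMPs listed, the ratio was 0.737, 0.847 and 0.699 in Normal and 0.839, 0.783 and 0.706 in Tumor, and the groups overlapped. In the injected tumors the ratio over the members was 0.836, 1.24 and 1.11 in DMSO and 1.52, 1.52 and 0.805 in C646, and the groups overlapped. These sums are descriptions of chosen members and were not tested. They weigh transcripts, not active protein.

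**Figure D4:**
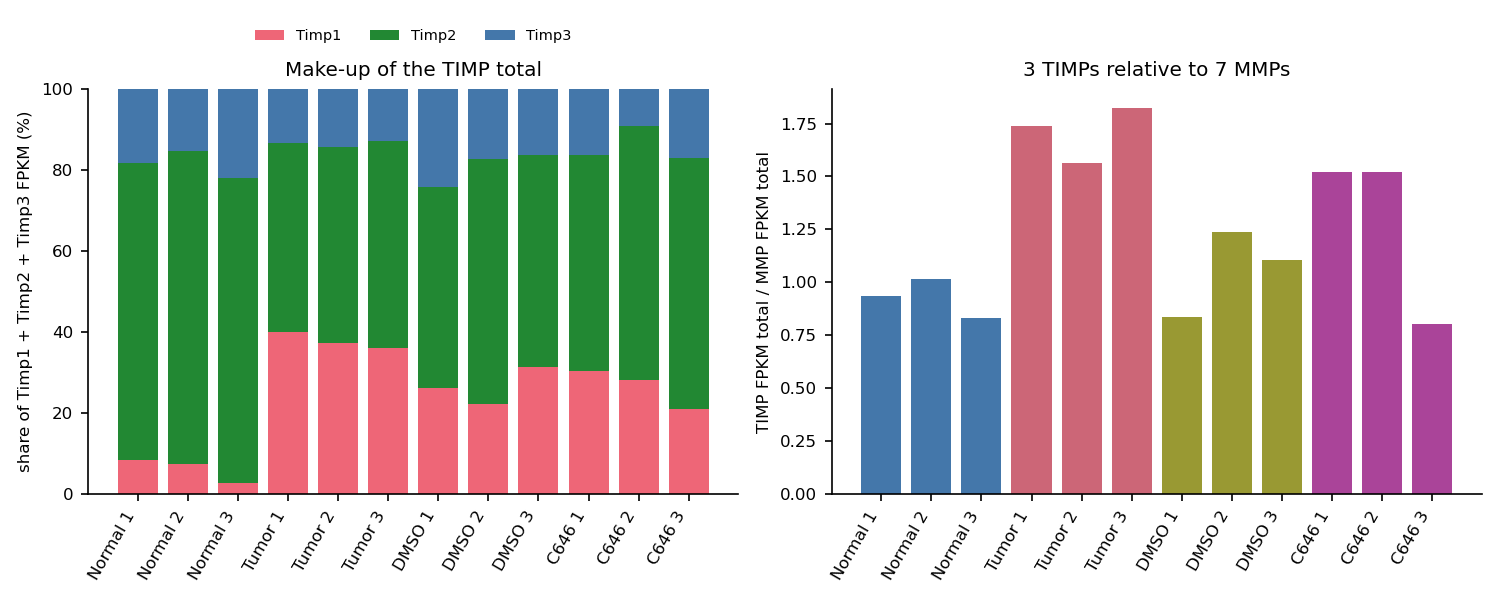
Left, share of Timp1, Timp2 and Timp3 in their summed FPKM (%) in each sample. Right, summed FPKM of the 3 TIMPs divided by that of the 7 MMPs, coloured by group. Timp1 holds 2.74% to 8.49% in Normal and 36.0% to 39.9% in Tumor, and the ratio is 0.834 to 1.02 in Normal and 1.56 to 1.82 in Tumor. Over all 23 MMPs and 4 TIMPs listed, which are not drawn, the ratio overlaps, with 0.699 to 0.847 in Normal and 0.706 to 0.839 in Tumor.

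The order of levels within each group showed which members stood apart. In Normal it ran from Timp2 through Mmp2, Mmp14 and Timp3, whose ranges did not overlap, to Mmp3, Timp1, Mmp9 and Mmp11, where each range overlapped the next. Mmp12 and Mmp13 were lowest in Normal. In Tumor, Timp2 and Timp1 came first with overlapping ranges, then Mmp14 and Mmp2, which overlapped, then Timp3, then Mmp3, Mmp11, Mmp12 and Mmp13 with overlap between neighbours, and Mmp9 last. Timp1 thus stood sixth in Normal and second in Tumor, and Mmp9 stood seventh in Normal and last in Tumor. In DMSO the order was Timp2, Mmp14, Mmp2, Timp1, Timp3, Mmp12, Mmp11, Mmp3, Mmp13 and Mmp9, and of these neighbours only Mmp14 and Mmp2, and Timp3 and Mmp12, did not overlap. In C646 it was Timp2, Mmp2, Mmp14, Timp1, Timp3, Mmp3, Mmp11, Mmp12, Mmp13 and Mmp9, with no overlap between Timp1 and Timp3, Mmp12 and Mmp13, and Mmp13 and Mmp9. In DMSO and C646, Mmp2 is the sum of 2 rows of that name, and with the higher row alone it would stand below Timp1 in DMSO. Mmp12 had 3.46 to 8.75 FPKM in DMSO and 1.40 to 1.81 FPKM in Tumor. These samples came from experiments quantified on different gene tables, so their levels are set side by side and were not tested.

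Other cell types moved with the comparison of Tumor and Normal. Of the 7 fibroblast markers found, all were called lower in Tumor, as were 31.7% of all genes tested. This share also stands beside the counts of the other markers below. The summed FPKM of the fibroblast markers was 643 to 708 in Normal and 89.0 to 176 in Tumor. Macrophage markers summed to 733 to 826 FPKM in Normal and 217 to 288 FPKM in Tumor, with 6 of 7 called lower. Mmp12, named for macrophages, moved against this sum. All 5 endothelial markers were lower, from 118 to 146 FPKM in Normal to 19.1 to 29.6 FPKM in Tumor. Neutrophil markers, for the cells in which Mmp8 and Mmp9 are stored, summed to 7.42 to 19.3 FPKM in Normal and 83.1 to 291 FPKM in Tumor. Most of the sum in Tumor was S100a8 (76.4 to 275 FPKM), which some epithelial cells also make, while Elane was listed at 0 in all tumors and Mpo, Ly6g, Ngp and Camp were at most 0.282 FPKM there. In whole tissue, fewer cells of a type and less RNA per cell cannot be told apart, and the part of these cell types in the results was not tested.

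Of 17 genes in the list of other MMPs and Timp4, 8 passed the filter. Of these, 1 was called higher and 6 lower in Tumor, beside 28.8% and 31.7% of all genes tested. Of the 6 lower, 4 passed the filter only through Normal, so they had to be lower to be tested. Mmp15, the second membrane-type MMP, had 21.8, 14.1 and 18.3 FPKM in Normal and 52.7, 29.8 and 57.7 FPKM in Tumor. It rose by 1.34 ± 0.28 (SE, limma adjusted p = 0.00496), while Mmp14 fell. In Tumor, each sample had more Mmp15 than Mmp14, and in Normal each had less. Timp4, an inhibitor known from adipose tissue and heart, had 10.8 to 16.8 FPKM in Normal, 0.538 FPKM in Tumor replicate 1 and was listed at 0 in the other tumors. Mmp19 had 16.7 to 17.6 FPKM in Normal and 1.04 to 1.68 FPKM in Tumor (difference -3.64, limma adjusted p = 2.53e-05). Mmp28, or epilysin, had 7.17 to 8.75 FPKM in Normal and 0.388 to 0.447 FPKM in Tumor (difference -4.10, limma adjusted p = 2.23e-05). Mmp23 and Mmp25 also fell, by 2.09 and 1.20, and Mmp17 did not pass the test (difference -0.80, limma adjusted p = 0.0706). Mmp17, Mmp25, Mmp27, Mmp28 and Timp4 passed the filter only through Normal.

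Of 18 tested among the activators and cell surface regulators of MMPs, 7 were higher and 8 lower in Tumor, beside 28.8% and 31.7% of all genes tested. Spp1, or osteopontin, a secreted protein that binds integrins and CD44 and is cut by MMPs, rose most, from 15.1 to 26.6 FPKM in Normal to 3304 to 3745 FPKM in Tumor (difference 7.56, limma adjusted p = 7.07e-06). Serpine2, an inhibitor of serine proteases such as urokinase, rose by 2.95 (limma adjusted p = 0.000660). Plat, the tissue-type plasminogen activator, fell by 2.96 (limma adjusted p = 0.000175). Further genes of this list were picked after their values were seen. Reck, a membrane-anchored inhibitor of Mmp14, Mmp2 and Mmp9, had 4.57 to 5.41 FPKM in Normal and 0.733 to 1.01 FPKM in Tumor (difference -2.47, limma adjusted p = 0.000113). Plau, the urokinase that makes plasmin for the activation of proMMPs, fell by 1.74 (limma adjusted p = 0.000406). Furin, the proprotein convertase that activates Mmp11 and Mmp14, rose by 0.49 (limma adjusted p = 0.0124), and its values of 24.8 to 29.6 FPKM in Normal and 36.8 to 40.5 FPKM in Tumor did not overlap.

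Of the related ADAM and ADAMTS proteases, 0 of 17 tested were higher and 11 lower in Tumor, where 28.8% of all genes tested were higher and 31.7% lower. Of the 11, 5 passed the filter only through Normal. Adamts5, an aggrecanase, fell by 3.59 (limma adjusted p = 2.65e-05), and Adam12 and Adam33 fell by 3.28 (limma adjusted p = 9.93e-05) and 3.16 (limma adjusted p = 0.000159). These 3 are among those 5, under 1 FPKM in every tumor. Of 19 matrix proteins tested that MMPs can cut, 2 were higher and 13 lower, beside those 28.8% and 31.7%. Dcn, the proteoglycan decorin, had 336 to 418 FPKM in Normal and 8.71 to 28.7 FPKM in Tumor (difference -4.49, limma adjusted p = 0.000105). Nid1, a basement membrane linker, fell by 3.67 (limma adjusted p = 1.74e-05), and the fibrillar collagen Col3a1 fell by 2.49 (limma adjusted p = 0.000714). The AP-1 and Ets factors, which act on MMP promoters, had 10 higher and 2 lower of 12 tested, beside the same 28.8% and 31.7% of all genes. Etv5 rose by 2.31 (limma adjusted p = 0.000349). Etv1 had 0.445 to 0.849 FPKM in Normal and 2.77 to 13.1 FPKM in Tumor, so it passed the filter only through Tumor, with a difference of 3.26 (limma adjusted p = 0.00217). Ets1, which is known from endothelial cells and lymphocytes, fell by 3.74 (limma adjusted p = 1.81e-05). The medians were -1.20 for the ADAM list, -1.49 for the matrix list and 1.26 for the factors, beside -0.02 over all genes tested. The lists were chosen, and their counts are descriptions beside the shares over all genes.

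Between C646 and DMSO no member was called. This comparison asks whether transcripts differed between tumors of mice injected with C646 and tumors of mice injected with DMSO. Of 9 members tested, 0 were called, as 0% of all 12083 genes tested were in the limma fit at an adjusted p under 0.05. An unadjusted limma p under 0.05 was found for 384 of those genes, fewer than the share of 0.05 expected with no difference. Mmp9 was under the filter. C646 and DMSO overlapped for each of the 10 members. Of all genes tested, only 8.56% did not overlap, so this overlap does not set the members apart. The adjusted p was 0.990 for 8 members and 0.999 for Mmp11, and the median difference over the 9 members was 0.05.

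The intervals showed what these 6 tumors could leave undetected. Mmp2 had 14.8, 21.5 and 23.1 FPKM in DMSO and 17.8, 18.2 and 48.8 FPKM in C646. C646 replicate 3 alone stood above all DMSO tumors, and the difference of 0.37 (95% interval -0.60 to 1.33) was -0.11 without it. Mmp2 was the sum of 2 rows of that name in these samples only, 1 with 12.8 to 18.2 FPKM in DMSO and 13.9 to 44.0 FPKM in C646, and 1 with 2.03 to 7.26 and 0.921 to 4.79 FPKM. With the higher row alone the difference was 0.50. Mmp3 had 0.324, 4.48 and 3.64 FPKM in DMSO and 4.29, 4.40 and 9.12 FPKM in C646. Its difference of 1.63 had the widest interval of the members, -0.62 to 3.89, and was 0.46 without DMSO replicate 1.

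C646 replicate 3 was highest of the 6 tumors in Mmp2, Mmp3 and Mmp11. It was also highest in the summed fibroblast markers, with 269 FPKM against 93.0 to 141 FPKM in the other injected tumors. DMSO replicate 1, lowest in Mmp3, had the lowest fibroblast sum. It also held 277 FPKM of the cartilage collagen Col2a1, where the others had at most 2.42 FPKM. The 6 adipocyte markers summed to 9.95, 43.4 and 47.2 FPKM in DMSO and 58.7, 264 and 302 FPKM in C646. These sums did not overlap between the groups, and 0 of the 5 adipocyte markers tested were called. The part of these markers in the values of the members was not tested.

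Mmp11 had 2.45, 3.15 and 4.72 FPKM in DMSO and 2.35, 2.80 and 6.10 FPKM in C646, a difference of 0.05 (95% interval -0.95 to 1.05). Mmp14 had 33.1, 26.8 and 37.5 FPKM in DMSO and 19.9, 20.5 and 33.2 FPKM in C646. C646 replicates 1 and 2 were below all DMSO tumors and replicate 3 was among them, with a difference of -0.43 (95% interval -0.99 to 0.12).

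Mmp12 and Mmp13, the members with higher values in Tumor among the MMPs, had lower means in C646 than in DMSO and did not pass the test. Mmp12 had 8.75, 3.46 and 7.44 FPKM in DMSO and 1.497, 4.86 and 4.27 FPKM in C646, a difference of -0.94 (95% interval -2.21 to 0.32) that was -0.42 without C646 replicate 1. Mmp13 had 3.09, 0.744 and 3.13 FPKM in DMSO and 1.13, 0.830 and 1.33 FPKM in C646, a difference of -0.83 (95% interval -2.27 to 0.61). DMSO replicate 2 lay among the C646 tumors for Mmp12 and was the lowest of the 6 tumors for Mmp13. Without DMSO replicate 2 the difference of Mmp13 was -1.50 (limma adjusted p = 0.346), and without DMSO replicate 1 or 3 it was -0.50 or -0.49. Mmp9 had 0.739, 0.122 and 2.34 FPKM in DMSO and 0.359, 0.109 and 0.501 FPKM in C646. The highest Mmp9 value came from DMSO replicate 3, which also had 671 FPKM of summed neutrophil markers, nearly all S100a8 at 654 FPKM, against 68.3 to 93.0 FPKM in the other injected tumors. S100a9 had 16.2 FPKM in that tumor and 0 to 1.89 FPKM in the other injected tumors. Camp had 0.392 FPKM there and was listed at 0 in the others. Elane was listed at 0 in all injected tumors, and Mpo and Ngp in all but C646 replicate 3. The part of the markers was not tested.

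The inhibitors had narrower intervals than the tested MMPs other than Mmp14. Timp1 had 13.8, 16.6 and 28.4 FPKM in DMSO and 21.8, 22.3 and 17.4 FPKM in C646, a difference of 0.13 (95% interval -0.52 to 0.77). Timp2 had 26.2, 45.2 and 47.4 FPKM in DMSO and 38.5, 49.3 and 51.6 FPKM in C646, a difference of 0.27 (95% interval -0.33 to 0.86). Timp3 had 12.9, 12.8 and 14.9 FPKM in DMSO and 11.8, 7.25 and 14.1 FPKM in C646, a difference of -0.34 (95% interval -0.94 to 0.26). The 3 TIMPs were mixed between the groups in each case, and a difference past 1 on the log2 scale lay outside the 3 intervals.

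The other lists gave 0 calls between C646 and DMSO, with 5 other MMPs, 18 regulators, 13 ADAM and ADAMTS proteases, 19 matrix proteins and 13 AP-1 and Ets factors tested. Among the 5 other MMPs tested, the largest difference was that of Mmp19, with 0.614, 0.978 and 1.31 FPKM in DMSO and 0.924, 2.22 and 4.23 FPKM in C646 (difference 1.13, limma adjusted p = 0.990). Among the tested genes of the remaining lists the largest differences were -3.38 for Klk8, a serine protease, -0.95 for Adamts1, -2.79 for Col2a1 and -0.85 for Fosb, each with overlap between the groups and a limma adjusted p of 0.990. Fos, picked after its values were seen, had 39.7, 44.9 and 67.5 FPKM in DMSO and 33.1, 30.7 and 25.0 FPKM in C646. Its groups did not overlap, and it did not pass the test (difference -0.75, limma adjusted p = 0.990). Mmp8 and Mmp10 of the chromosome 9 cluster were under the filter. Mmp8 had 0.0563 to 0.686 FPKM in DMSO and was listed at 0 in all C646 tumors, and Mmp10 had 0.169 to 0.334 FPKM in DMSO and 0.0919 FPKM in C646 replicate 2, and was listed at 0 in the other C646 tumors.

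The genes with a profile most like each member were found by the root mean square difference of log2(FPKM + 0.03125) over the 12 samples, after each gene was centred on its own mean, among 11482 genes that passed the filter in both comparisons (11483 with the member itself under it). These profiles mostly follow the step between Normal and the tumors, which many genes share. Timp3 was nearest to Tmem204 (0.16) and Cds2 (0.21), and Timp2 to Rab3il1 (0.19) and Cyth4 (0.20). Mmp14 was nearest to Cerk (0.22) and Capn2 (0.25). Mmp2 was nearest to Adamts2 (0.23), a procollagen-processing protease, and Fkbp7 (0.24), and Timp1 to Cenpa (0.29) and Slfn9 (0.30). Mmp11 came closest to Slc15a3 (0.34) and Cyp2d22 (0.38), Mmp12 to Col12a1 (0.54) and Ptprf (0.54), and Mmp3 to Tnxb (0.56) and Lrrc17 (0.60). Mmp13 had Rnf128 (0.67) and Mir31 (0.68), and Mmp9 had Pfkfb3 (0.76) and Tcf7 (0.81). This measure grows with the spread of a gene over the samples, which was 0.66 (SD of log2) for Mmp14 and 2.09 for Mmp9, so it does not rank the members.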

How the data were processed

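RNA-seq of poly-A RNA was analysed in 12 samples of 4 groups with 3 replicates each, grouped by the sample titles. The authors trimmed the reads, mapped them to mm10 with TopHat2 2.1.1 and deposited FPKM per gene from Cufflinks 2.2.1, 1 table per sample, and the gene annotation is not given in the sources used here. The kit did not keep the strand. FPKM already takes out gene length and library size and is no count, and the mapped reads per sample are not in these tables, so depth is unknown and no counting interval is given. FPKM summed to between 526855 and 783719 per sample. The tables have 26220 rows in the Normal and Tumor samples, of which 1837 have no gene name and were dropped, and 24304 rows in the DMSO and C646 samples. Rows with the same name were summed (544 and 473 names).

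The test was limma 3.58.1 (R 4.3.3; lmFit and eBayes with trend) on log2(FPKM + 0.03125). A gene entered the fit if 3 or more of the 6 samples reached 1 FPKM. Benjamini-Hochberg adjustment was made over all genes tested, with a threshold of 0.05. A difference on this scale depends on the pseudocount for low genes. Single genes were also compared with a two-sided exact permutation test. The script was tested on simulated data. Other steps used Python 3.11.15 with pandas 2.3.3 and matplotlib 3.10.9. Gene positions came from GENCODE annotation of GRCm38 and promoters from RefSeq (GRCm38.p6).

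All 10 members are named. In each other list, up to 3 genes are named with the largest difference among those called without overlap, or else the 1 with the largest difference. Any other MMP or Timp4 that passed the filter may also be named, and 2 most similar genes for each member. Genes outside this rule were picked after their values were seen, which also holds for the other cluster genes, the marker genes named and the overlapping genes. The members and lists were chosen with earlier results of these data known. Alternatives were pseudocounts of 1 and 0.25, no filter, median-ratio scaling, quantile normalization, the highest row of a repeated name, a fit of all 12 samples, the replicate number as a block, and each replicate left out in turn. P-values measure the spread between these samples, which is between pools of 3 mice in Normal and between single mice in Tumor.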

Additional observations from a re-analysis of the deposited data

How the results depend on the processing

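Of 140 alternative values of the members in Tumor and Normal, 0 changed direction. Of the 120 tested both there and in the report, 119 kept their side of the threshold, and Timp1 lost its call without Tumor replicate 1. The other 20 were not tested on both sides. Of these, Mmp13 was called higher without the filter and moved with both pseudocounts. The 7 lower members stayed lower and called under each alternative in which they were tested, Mmp9 being untested where a Normal replicate was left out. The count of higher members ran from 0 to 2 with 1 replicate left out. It was 0 without Tumor replicate 1 and 1 without Tumor replicate 2 or 3, where Mmp12 fell under the filter. The count of lower members ran from 6 to 7. Without the filter 3 members were higher.

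With 1 replicate left out, 3030 to 3373 genes were higher and 2570 to 4172 lower in Tumor, lowest without Normal replicates 2 (2686 genes) and 3 (2570 genes), where fewer genes passed the filter. Quantile normalization moved the median difference of all genes to 0.10, and no member changed direction. Between C646 and DMSO, 0 genes were higher and 0 to 12 lower with 1 replicate left out, 12 without DMSO replicate 2, and no member was called under any alternative. Uncalled members that changed sign there were Mmp11 under 2 alternatives and Mmp2, Timp1 and Timp2 under 1 each.

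With the replicate block, 3439 genes were higher and 3827 lower in Tumor, with 2 members higher and 7 lower, and 0 genes were called between C646 and DMSO. In Normal and Tumor the deviations of same-numbered samples correlated at -0.10 to 0.01, and those of other pairs at -0.06 to 0.09. In DMSO and C646 they correlated at 0.07 to 0.17, and those of other pairs at -0.23 to 0.14. With 3 samples in each group, these values cannot decide whether the numbers pair the samples. Mapped reads are not in these tables, so the precision of members under 1 FPKM is unknown.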
